A study of Mus musculus with 6 samples.

Results

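A group of 8 genes that mark CD4+ helper and regulatory T cells, namely Cd4, Zbtb7b, Cd40lg, Foxp3, Il2ra, Ikzf2, Tnfrsf4 and Tnfrsf18, was followed through RNA-seq libraries of CD8a+ leukocytes from mouse spleen. They were chosen by name, as genes by which CD4+ T cells carried into a CD8a+ preparation could show. They are 8 of the 44678 genes in the deposited data, and 8 of 8 passed the filter on low counts, which left 13024 genes to be tested. Groups comprised 3 libraries from WT mice (C57BL/6J) and 3 from KO mice, which lack on the C57BL/6J background a genomic segment with the precursors of both miR-144 and miR-451. All samples were untreated, and the study's methods give 1 range of young adult ages for all its mice. The deletion is not described as restricted to any cell type, and neither the pooling of mice nor littermate controls are described. Where libraries of a genotype do not come from separate mice, the p-values below measure technical spread. The study turned to sequencing with a question on the function of dendritic cells. Its methods describe magnetic sorting of dendritic cells by CD11c, of CD8+ T cells with Ly-2 beads and of CD4+ T cells with L3T4 beads, without naming the cells that were sequenced, and the CD8a+ label comes from the sample records.

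Mature T cells carry either the CD4 or the CD8 co-receptor, which bind MHC class II and class I molecules. The zinc finger factor ThPOK (Zbtb7b) fixes the CD4 helper fate, and Runx3 fixes the CD8 cytotoxic fate. Helper T cells activate B cells and dendritic cells through CD40 ligand (Cd40lg). Regulatory T cells restrain immune responses, depend on the factor Foxp3, and carry the high-affinity IL-2 receptor chain CD25 (Il2ra), the factor Helios (Ikzf2) and the co-stimulatory receptors OX40 (Tnfrsf4) and GITR (Tnfrsf18). None of these genes is restricted to CD4+ T cells: Cd4 is also transcribed in a subset of splenic dendritic cells, and CD8+ T cells, B cells and NK cells can express several of the others.

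The sequences lost in KO mice are shown first, because a target gene of either microRNA could respond to their loss. A microRNA recognizes its targets mainly through its seed, bases 2 to 8, printed in capitals. The mature strands were taken from RefSeq (GRCm38.p6) and lie on the plus strand at chr11:78073047-78073066 (miR-144-3p), chr11:78073010-78073032 (miR-144-5p) and chr11:78073186-78073207 (miR-451a). They hold 3 distinct seeds.
mmu-miR-144-3p: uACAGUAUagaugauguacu
mmu-miR-144-5p: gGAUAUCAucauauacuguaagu
mmu-miR-451a: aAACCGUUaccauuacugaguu

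Among the 8 genes, Ikzf2 was the only one whose longest annotated 3′-UTR (GENCODE M21, GRCm38) held the 7 bases complementary to any of these seeds. Its 3′-UTR measures 7554 bases in exon 8 of 8 on the minus strand. It held 2 matches to miR-144-3p, at chr1:69535032-69535038 and chr1:69532084-69532090, and 1 match to miR-451a, at chr1:69533372-69533378. The matches are printed in capitals with their flanks.
Ikzf2, miR-144-3p, upstream match: tcacctgccacATACTGTcttagccttga
Ikzf2, miR-144-3p, downstream match: tttgatggcacATACTGTatttttacagt
Ikzf2, miR-451a match: tgtgatctaaaAACGGTTtgacagtggag

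Such matches are frequent in long 3′-UTRs. Of 11586 tested genes with an annotated 3′-UTR, 13.9% held a match to the miR-144-3p seed and 2.22% to the miR-451a seed, and among 217 genes with a 3′-UTR within 20% of the length of that of Ikzf2 the shares were 51.6% and 6.91%. A match is a description of letters and not a measured target site. The 3′-UTRs of the other 7 genes measure between 180 bases (Tnfrsf4) and 3411 bases (Il2ra).

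Libraries totalled between 8143971 and 8876570 counts, and 3 counts corresponded to between 0.338 and 0.368 CPM (counts scaled by a constant to the total of the library). Mir144 and Mir451a had 0 counts in 6 of 6 libraries, so the genotypes could not be checked on the deleted genes. The labelled CD8a+ identity was checked on Cd8a, a co-receptor chain, which measured 692, 1028 and 967 CPM in WT libraries 1 to 3 and 696, 481 and 1023 CPM in KO libraries 1 to 3. The T cell receptor subunit Cd3e measured between 220.1 and 398 CPM. B cell, monocyte and other genes were also present, as given below. No unsorted spleen library is among the 6, so these levels cannot show how far CD8a+ cells were enriched. In such bulk RNA, fewer cells of a type and less RNA per cell cannot be told apart.

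None of the 8 genes differed between KO and WT after adjustment for all tested genes (edgeR quasi-likelihood test, Benjamini-Hochberg adjusted p between 0.740 and 0.995). The same test called 4 of 13024 genes (0.0307%). At an unadjusted p under 0.05, it held 1 of the 8 genes, Tnfrsf18, against 6.25% of all tested genes, and DESeq2 and limma voom called 0 of the 8 as well. That count was 4 of 8 without KO library 3 (Cd4, Zbtb7b, Il2ra and Tnfrsf18), where 14.1% of all tested genes had such a p, and 2 of 8 without WT library 1 (Il2ra and Tnfrsf18), against 9.25%. It was 0 of 8 without WT library 2, WT library 3 or KO library 2, against 3.18% to 3.91%, and none of these genes passed adjustment. The fitted log2 fold change was above 0 in 6 of the 8 genes and below 0 in Tnfrsf4 and Tnfrsf18, with a median of 0.28 beside 0.003 over all tested genes. The libraries also split in a way that cut across genotype: WT library 1 and KO libraries 1 and 2 were the 3 highest for 6 of the 8 genes, as they were for 15.1% of all tested genes.

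**Figure D1:**
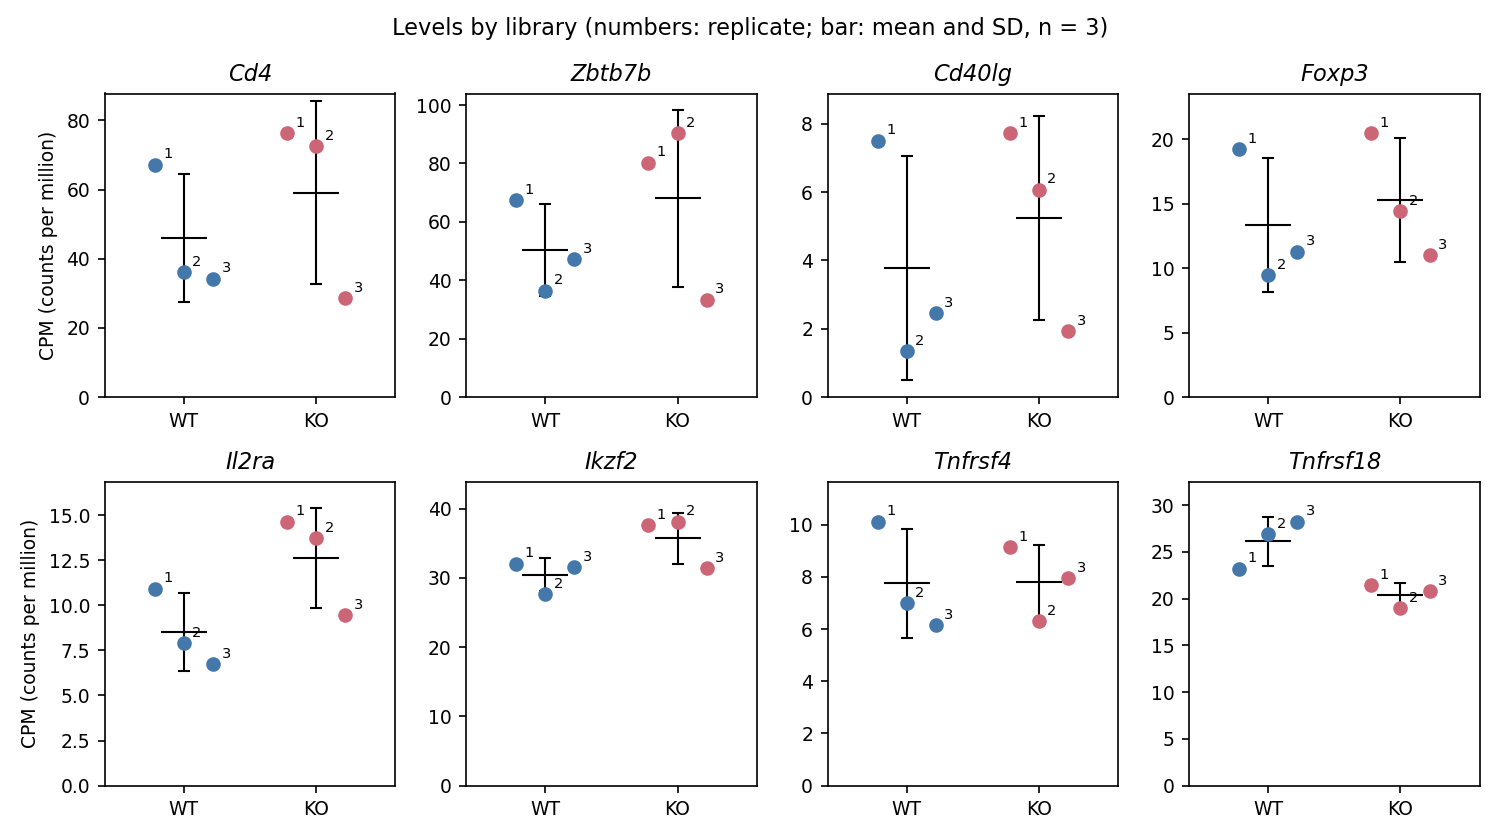
CPM of the 8 genes (vertical axes, from 0) in the 3 WT and 3 KO libraries, with the replicate number beside each point and the mean and SD (n = 3) as bars. WT library 1 and KO libraries 1 and 2 are the 3 highest in the Cd4, Zbtb7b, Cd40lg, Foxp3, Il2ra and Ikzf2 panels, although for Il2ra and Ikzf2 WT library 1 (10.9 and 32.1 CPM) lies closer to KO library 3 (9.44 and 31.4 CPM) than to the other two, and Tnfrsf18 is the gene whose groups do not overlap, with KO between 18.9 and 21.4 CPM and WT between 23.2 and 28.2 CPM.

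Cd4 (ENSMUSG00000023274, chr6:124864692-124888221, minus strand) encodes the co-receptor itself. It measured 67.2, 36.2 and 34.3 CPM in WT libraries 1 to 3 and 76.3, 72.5 and 28.6 CPM in KO libraries 1 to 3. WT library 1 stood with KO libraries 1 and 2 at the high level, KO library 3 was the lowest of all, and the groups overlapped. The means were 45.9 ± 18.5 CPM in WT and 59.1 ± 26.6 CPM in KO (SD, n = 3 each). The log2 fold change was 0.34 with an SE of 0.38 and a 95% confidence interval of -0.53 to 1.21 (edgeR, adjusted p = 0.883). It was 0.10 without KO library 1 and 0.72 without WT library 1. Within WT alone the level thus spanned more than the difference between the group means.

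Zbtb7b (ENSMUSG00000028042, chr3:89377644-89394776, minus strand), the helper lineage factor, measured 67.5, 36.5 and 47.3 CPM in WT and 80.3, 90.4 and 33.4 CPM in KO. The same 3 libraries were high, and the groups overlapped. With means of 50.4 ± 15.7 and 68.0 ± 30.4 CPM, its log2 fold change was 0.41 (SE 0.35, 95% confidence interval -0.40 to 1.22, edgeR adjusted p = 0.870). It was 0.15 without KO library 2 and 0.71 without KO library 3. Cd40lg (ENSMUSG00000031132, chrX:57212143-57224042, plus strand), the ligand through which helper T cells activate CD40-bearing cells, measured 7.51, 1.35 and 2.46 CPM in WT and 7.73, 6.07 and 1.93 CPM in KO. These values rest on between 12 and 66 counts per library. Again WT library 1 and KO libraries 1 and 2 were high, and the groups overlapped. Its library range, 5.72-fold from lowest to highest, was the widest of the 8 genes, and 3.13% of all tested genes had a range at least as wide. The log2 fold change of 0.45 had an interval from -1.09 to 1.98 (edgeR, adjusted p = 0.908), and it was 0.04 without KO library 1, 0.05 without WT library 2 and 1.43 without WT library 1.

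The transcription factors of regulatory T cells came next. Foxp3 (ENSMUSG00000039521, chrX:7573644-7595245, plus strand) measured 19.2, 9.46 and 11.3 CPM in WT and 20.5, 14.5 and 11.01 CPM in KO. KO libraries 2 and 3 lay inside the WT range, and the means of 13.3 ± 5.19 and 15.3 ± 4.80 CPM differed by less than either SD. The log2 fold change was 0.18 (SE 0.31, 95% confidence interval -0.54 to 0.90, edgeR adjusted p = 0.926). Its sign turned without WT library 2 (-0.02) and without KO library 1 (-0.10). Ikzf2 (ENSMUSG00000025997, chr1:69531214-69687245, minus strand), which encodes Helios and holds the seed matches printed above, measured 32.1, 27.7 and 31.6 CPM in WT and 37.6, 38.1 and 31.4 CPM in KO. KO libraries 1 and 2 were above all WT libraries, whereas KO library 3 was below 2 of them. It was the steadiest of the 8 genes across libraries, with a 1.38-fold range, and its log2 fold change was 0.21 (SE 0.12, 95% confidence interval -0.06 to 0.48, edgeR adjusted p = 0.817).

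The receptors completed the set. Il2ra (ENSMUSG00000026770, chr2:11642807-11693193, plus strand), the IL-2 receptor alpha chain, measured 10.9, 7.89 and 6.75 CPM in WT and 14.6, 13.7 and 9.44 CPM in KO. Only KO library 3 overlapped the WT range, falling below WT library 1. Its log2 fold change, 0.54 (SE 0.25, 95% confidence interval -0.03 to 1.11), did not pass the test (edgeR, adjusted p = 0.797). Tnfrsf4 (ENSMUSG00000029075, chr4:156013843-156016612, plus strand), encoding OX40, measured 10.1, 6.99 and 6.14 CPM in WT and 9.13, 6.32 and 7.94 CPM in KO. All KO libraries lay inside the WT range, and the means of 7.75 ± 2.10 and 7.80 ± 1.41 CPM were nearly equal. The log2 fold change was -0.01 with an interval from -0.60 to 0.58 (edgeR, adjusted p = 0.995).

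Tnfrsf18 (ENSMUSG00000041954, chr4:156026164-156028895, plus strand), which encodes GITR and begins 9551 bases beyond the end of Tnfrsf4, followed another order. It measured 23.2, 26.9 and 28.2 CPM in WT and 21.4, 18.9 and 20.8 CPM in KO. Every KO library was below every WT library, which held for 4.79% of all tested genes, while the opposite order held for 6.71%. Means were 26.1 ± 2.61 CPM in WT and 20.4 ± 1.29 CPM in KO, and the log2 fold change was -0.38 (SE 0.13, 95% confidence interval -0.68 to -0.07). The edgeR p of 0.0206 did not hold after adjustment (adjusted p = 0.740), and it was no longer under 0.05 without WT library 2, WT library 3 or KO library 2. The fitted log2 fold changes of the pan T genes were also below 0 in 18 of 18, with 0 called, as described next, and their part in the difference was not tested. Their sum overlapped between the groups, at 5202 CPM in WT library 1 and 6192 CPM in KO library 3.

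**Figure D2:**
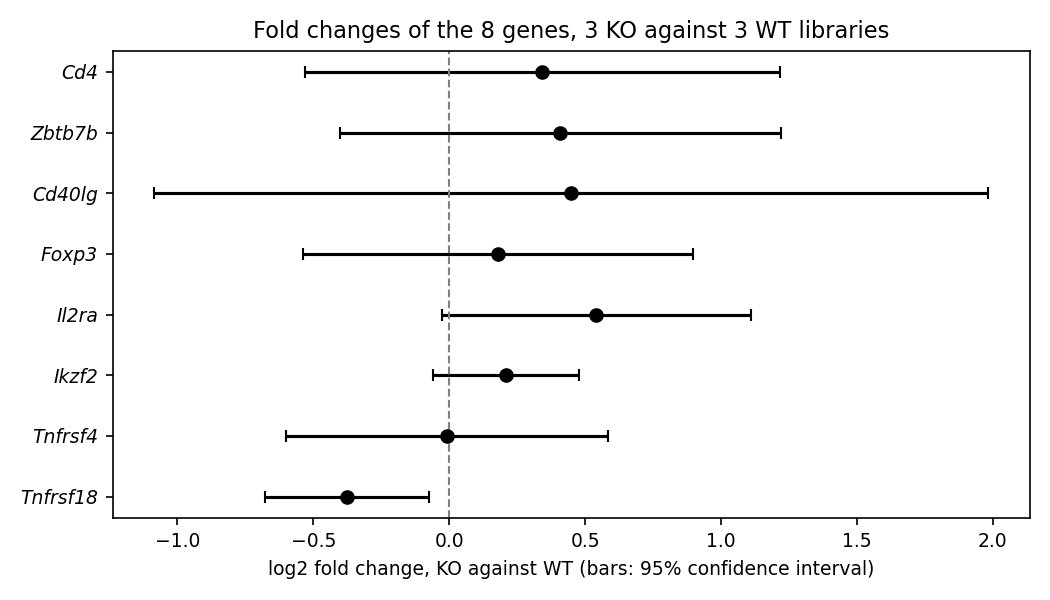
Fitted log2 fold changes of the 8 genes, KO against WT (horizontal axis), with 95% confidence intervals from the edgeR fit to 3 libraries per group. The interval of Tnfrsf18 (-0.68 to -0.07) lies below 0, the other 7 include 0, and that of Cd40lg (-1.09 to 1.98) is the widest.

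Marker genes of the cell types that a CD8a+ fraction of spleen could hold were summed in each library. The 18 pan T genes, among which Tcf7, Thy1 and Trbc2 were the most abundant, summed to 5202, 6590 and 6238 CPM in WT libraries 1 to 3 and to 4864, 3850 and 6192 CPM in KO libraries 1 to 3. The 13 genes of the CD8 lineage, led by Cd8a, Cd8b1 and Ccl5, summed to 2720, 3146 and 2992 CPM in WT and 2098, 1828 and 3077 CPM in KO. Both sums were thus lowest in WT library 1 and KO libraries 1 and 2, the libraries in which Cd4, Zbtb7b, Cd40lg, Foxp3, Il2ra and Ikzf2 were highest. These 3 libraries were the 3 highest for 0 of 18 pan T genes and 0 of 13 CD8 lineage genes.

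Genes of B cells and monocytes shared with Cd4 the 3 highest libraries instead. The 10 B cell genes, led by Cd79a, Pax5 and Ms4a1, summed to 2790, 1626 and 1568 CPM in WT and to 2942, 3197 and 1351 CPM in KO, and for 10 of 10 the highest libraries were WT library 1 and KO libraries 1 and 2. The same held for 7 of 8 monocyte or macrophage genes, led by Lyz2, Ly6c2 and Csf1r and summing to between 1112 and 2037 CPM, and for 5 of 8 NK cell genes, led by Il18rap, Tyrobp and Klrk1 and summing to between 199 and 354 CPM. Genes of CD4+ dendritic cells, led by Dtx1, Sirpa and Tnfaip2, summed to 536, 566 and 546 CPM in WT and 715, 705 and 517 CPM in KO, and 4 of the 7 tested had these 3 libraries highest. Dtx1, with the highest CPM of this list, measured 298, 414 and 383 CPM in WT and 369, 297 and 359 CPM in KO and did not share this split, whereas Sirpa measured 160.3, 98.01 and 108 CPM in WT and 246, 288 and 105 CPM in KO and did. The 3 libraries were highest in 2 of 8 genes of CD8a+ dendritic cells (Wdfy4, Cd24a and Itgax led), in 2 of 7 tested genes of plasmacytoid dendritic cells (Bst2, Ccr9 and Tcf4 led) and in 0 of 7 erythroid genes (Hbb-bs, Hba-a1 and Hbb-bt led). Those lists summed to between 668 and 1080, between 258 and 283, and between 176 and 2037 CPM. Within the plasmacytoid list, Tcf4 was highest in WT library 1 and KO libraries 1 and 2, and Ccr9 in WT libraries 2 and 3 and KO library 3. Its sum thus joined genes of opposite library patterns, and Siglech of the same list measured only 8.98 to 15.2 CPM. None of the listed genes was at 0 in all libraries, none was called in the test of KO against WT, and the part of these cell types in the levels of the 8 genes was not tested.

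The log2 fold change was below 0 in 18 of 18 pan T genes (median -0.31) and in 12 of 13 CD8 lineage genes (median -0.32), and above 0 in 10 of 10 B cell genes (median 0.28). Medians were larger for genes of CD4+ dendritic cells (0.60, above 0 in 6 of 7), monocytes or macrophages (0.45, 7 of 8) and erythroid cells (1.104, 7 of 7). The erythroid sum was 638.8, 438.5 and 175.5 CPM in WT libraries 1 to 3 and 325.2, 2037 and 642 CPM in KO libraries 1 to 3. KO library 2 thus stood apart, and KO library 1 lay below WT libraries 1 and 2. Genes of CD8a+ dendritic cells, which a CD8a+ sort can retain, had a log2 fold change above 0 in 8 of 8 (median 0.47), an unadjusted p under 0.05 in 4 of 8 against 6.25% of all tested genes, and all KO above all WT libraries in 3 of 8 against 6.71%. The medians were 0.28 for NK cell genes and -0.02 for genes of plasmacytoid dendritic cells. With the mean B cell marker level as a covariate, chosen after the data were seen, the log2 fold change of Cd4 was 0.009, of Zbtb7b 0.08, of Cd40lg 0.03, of Foxp3 0.03, of Ikzf2 0.16, of Il2ra 0.41, of Tnfrsf4 -0.04 and of Tnfrsf18 -0.34. None of the 8 genes was called there either. The B cell markers were highest in the same libraries as Cd4, so a Cd4 value near 0 follows from that likeness and tests no cause.

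**Figure D3:**
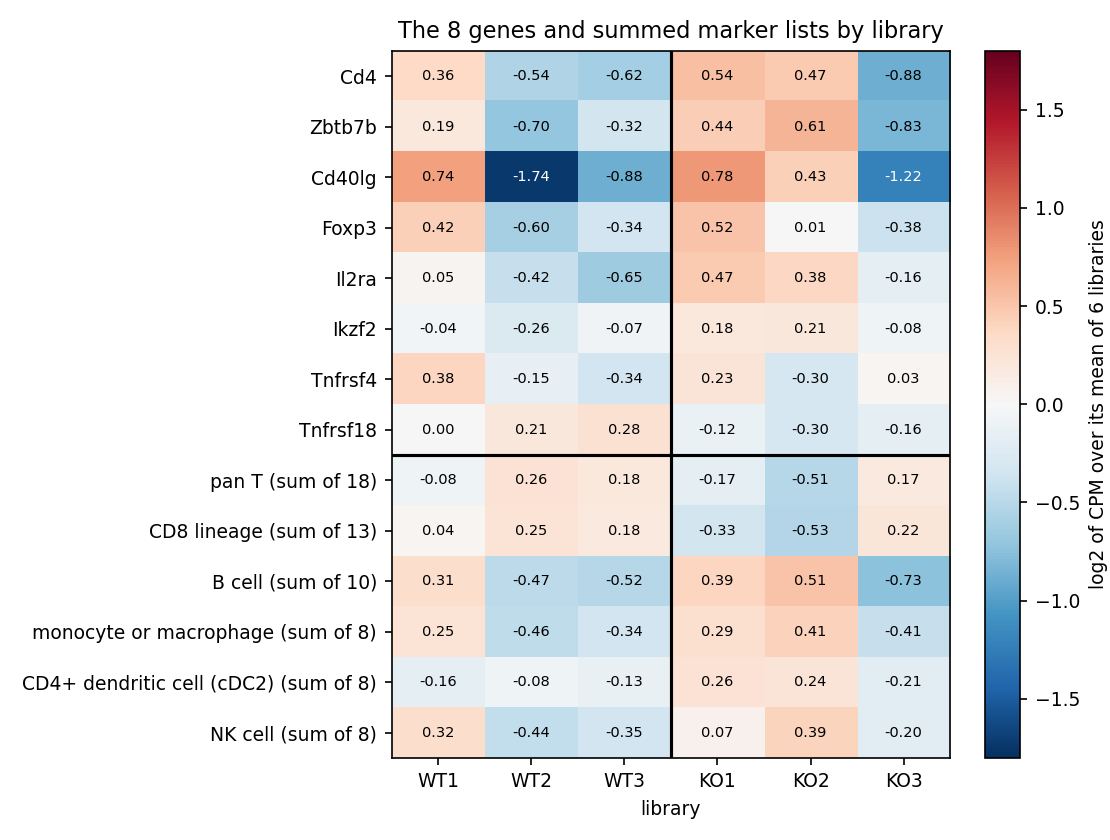
Each cell gives the log2 of a gene's CPM, or of the summed CPM of a marker list, over its mean across the 6 libraries (columns; red above and blue below the mean). Cd4, Zbtb7b, Cd40lg and Foxp3 share with the B cell and monocyte sums levels above the mean in WT library 1 and KO libraries 1 and 2 (B cell sums of 2790, 2942 and 3197 CPM), Il2ra and Ikzf2 lie near their means in WT library 1 (10.9 and 32.1 CPM), and Tnfrsf18 and the pan T and CD8 lineage sums are lowest in KO library 2.

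To see against which transcripts the genes kept a steady proportion, each was divided by the summed lists, a comparison chosen after their values were seen. Cd4 equalled 1.29%, 0.549% and 0.549% of the pan T sum in WT libraries 1 to 3 and 1.57%, 1.88% and 0.461% in KO libraries 1 to 3, a 4.09-fold range. Against the B cell sum it equalled 2.41%, 2.22% and 2.19% in WT and 2.60%, 2.27% and 2.11% in KO, a 1.23-fold range. Cd4 was thus close to a constant share of the B cell sum in all 6 libraries. Zbtb7b gave ranges of 4.36-fold against the pan T sum and 1.34-fold against the B cell sum. Undivided, the CPM of Cd4 and Zbtb7b spanned 2.67-fold and 2.71-fold, and against the monocyte or macrophage sum they spanned 1.65-fold and 1.53-fold. Cd40lg gave 7.74-fold against the pan T sum, 3.24-fold against the B cell sum and 3.402-fold against the monocyte or macrophage sum. The other factors and Il2ra were steadier against the monocyte or macrophage sum than against the B cell sum. In that order the ranges were 1.55-fold and 1.802-fold for Foxp3 (2.17-fold undivided), 1.47-fold and 1.79-fold for Il2ra (2.17-fold undivided), and 1.55-fold and 2.02-fold for Ikzf2. Undivided, Ikzf2 spanned 1.38-fold, less than against any of these sums. Against the pan T sum these 3 genes spanned 2.93-fold, 3.29-fold and 2.36-fold, and against the CD8 lineage sum ranges of the 6 genes lay between 2.37-fold (Ikzf2) and 8.57-fold (Cd40lg).

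Tnfrsf4 and Tnfrsf18 spanned less against the pan T sum than against the B cell sum. Undivided, Tnfrsf4 spanned less still and Tnfrsf18 nearly the same. The range of Tnfrsf4 was 1.65-fold undivided, 1.98-fold against the pan T sum and 2.98-fold against the B cell sum. Tnfrsf18 equalled 0.446%, 0.409% and 0.453% of the pan T sum in WT and 0.441%, 0.492% and 0.336% in KO, a 1.46-fold range, beside 1.49-fold undivided and 3.04-fold for the B cell sum. Relative to the pan T sum, the KO values of Tnfrsf18 lay on both sides of the WT values and the groups overlapped. When libraries were scaled to the pan T genes, the median log2 fold change of all tested genes moved to 0.33, and Tnfrsf18 stood at -0.05 (edgeR, adjusted p = 0.886), which is again below that median.

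**Figure D4:**
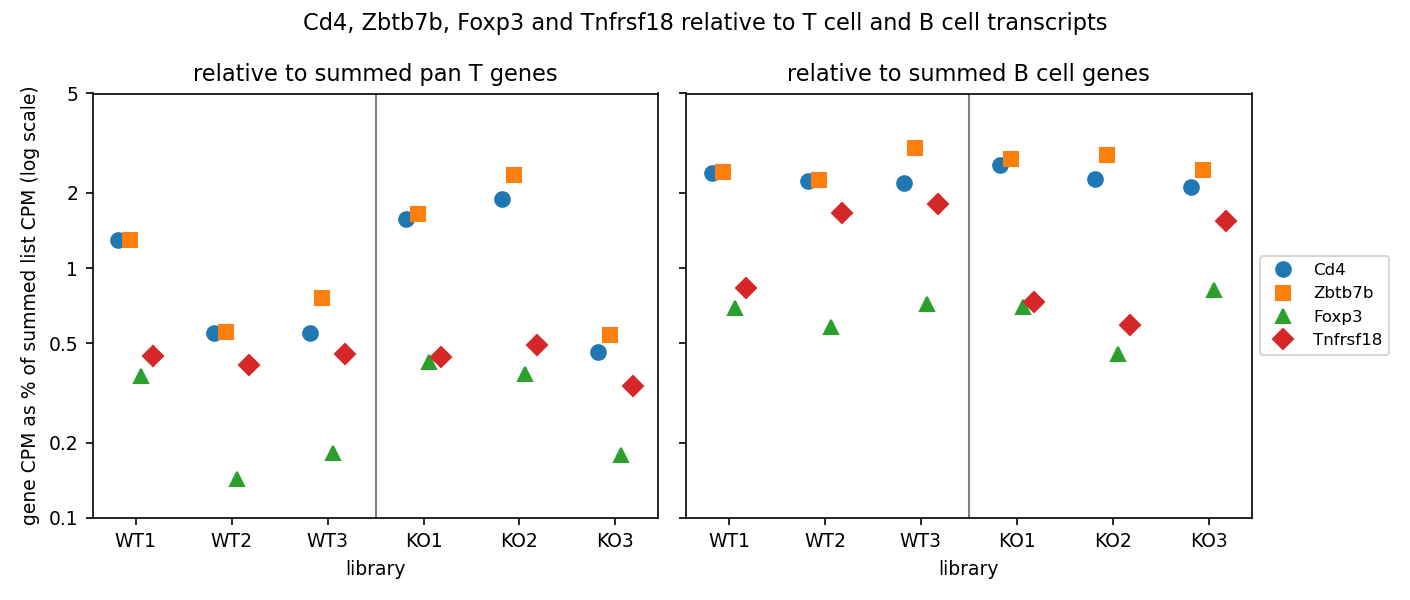
CPM of Cd4, Zbtb7b, Foxp3 and Tnfrsf18 as a percentage of the summed pan T genes (left) or B cell genes (right) in each library, on a logarithmic axis. Cd4 spans 0.461% to 1.88% of the pan T sum but 2.11% to 2.60% of the B cell sum, whereas Tnfrsf18 stays between 0.336% and 0.492% of the pan T sum.

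Ratios within a library do not depend on its scaling. The Cd4 to Cd8a ratio of CPM, which sets the helper against the cytotoxic co-receptor, was 9.72%, 3.52% and 3.55% in WT and 10.96%, 15.1% and 2.79% in KO. The lowest and the highest ratio were both found in KO libraries. The log2 ratio was -4.34 ± 0.84 in WT and -3.69 ± 1.29 in KO (SD), a difference of 0.64 (exact two-sided permutation test, p = 0.6, and 0.8 after adjustment over 4 ratios), and 3 libraries against 3 allow no p below 0.1. The difference was 0.16 without KO library 2, 1.13 without WT library 1 and 1.38 without KO library 3. Scaled for exon length as well, the Cd4 to Cd8a ratio was between 2.52% and 13.6%.

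The Cd4 to Cd3e ratio was 22.4%, 9.68% and 8.61% in WT and 27.9%, 33.0% and 7.32% in KO. It showed the same 3 libraries high, and its log2 difference of 0.62 did not exceed the spread (exact permutation test, p = 0.5, adjusted p = 0.8). This difference was 0.21 without KO library 2, 1.05 without WT library 1 and 1.30 without KO library 3. The Zbtb7b to Runx3 ratio, of the helper over the cytotoxic lineage factor, was 44.2%, 20.5% and 25.9% in WT and 54.7%, 52.0% and 18.1% in KO. Runx3 itself stayed between 147 and 185 CPM. The log2 difference was 0.37 (exact permutation test, p = 0.6, adjusted p = 0.8), with 0.096 without KO library 1, 0.13 without KO library 2, 0.69 without WT library 1 and 0.90 without KO library 3.

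The Foxp3 to Cd4 ratio was the most even of the 4. It measured 28.6%, 26.2% and 33.0% in WT and 26.8%, 19.9% and 38.6% in KO, so that the WT values lay inside the KO range. Its log2 difference was -0.09 (exact permutation test, p = 0.9, adjusted p = 0.9), and the sign turned without WT library 3 and without KO library 2.

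**Figure D5:**
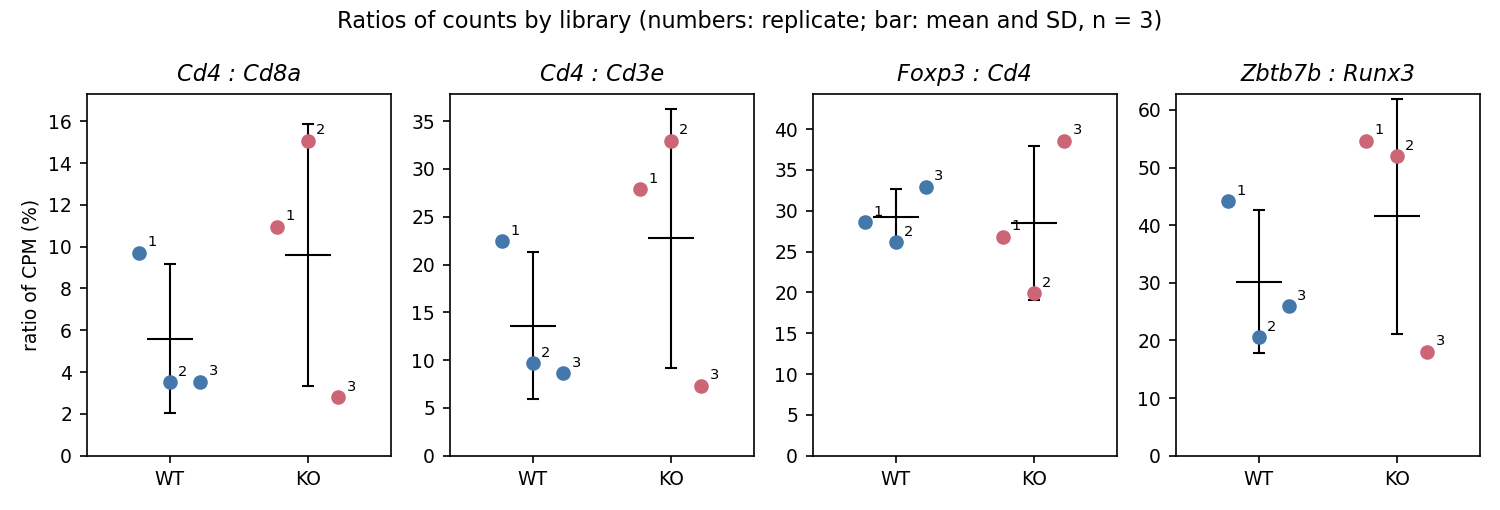
Ratios of CPM in percent (vertical axes, from 0) for Cd4 to Cd8a, Cd4 to Cd3e, Foxp3 to Cd4 and Zbtb7b to Runx3 in 3 WT and 3 KO libraries, with replicate numbers beside the points and mean and SD as bars. KO library 3 has the lowest Cd4 to Cd8a ratio (2.79%) and KO library 2 the highest (15.1%).

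Levels of different genes were compared per kilobase of annotated exon, as the mean CPM per kilobase over 6 libraries. Tnfrsf18 stood first with 15.3, followed by Cd4 with 13.0, Zbtb7b with 10.6, Tnfrsf4 with 5.70, Cd40lg with 3.61, Foxp3 with 3.13, Ikzf2 with 2.85 and Il2ra with 1.85. On the same scale Cd8a measured 224, Cd8b1 385 and Cd3e 79.9, beside 302 for the B cell gene Cd79a and 392 for the monocyte or macrophage gene Lyz2. The library ranges of all neighbours in this order overlapped, and Tnfrsf18 exceeded Cd4 in 3 of 6 libraries. Within each library, Cd4 exceeded Zbtb7b, Zbtb7b exceeded Tnfrsf4 and Ikzf2 exceeded Il2ra in 6 of 6, whereas Cd40lg exceeded Foxp3 in 3 and Foxp3 exceeded Ikzf2 in 2.

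Several of the 8 genes overlap annotated neighbours, and whether the counting used strand is not stated. Of the exon bases of Foxp3, 18.6% overlap Flicr on the same strand and 12.9% overlap Ccdc22 on the opposite strand. On that opposite strand, 8.15% also overlap Gm36995 and 5.81% overlap Ppp1r3f. Ccdc22 had between 198 and 225 counts per library, more than the 84 to 175 of Foxp3, so the Foxp3 values could hold reads of Ccdc22 if strand was not used. For Tnfrsf18, 27.2% overlap the antisense gene Gm16008, which had between 3 and 8 counts per library.

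Other genes of helper T cells were examined as a list of 22, of which 18 passed the filter. In this list 0 genes were called in either direction, 10 had a log2 fold change above 0 and 8 below, and the median was 0.04. The most abundant were Cd28, a co-stimulatory receptor, at 149 ± 6.91 CPM in WT and 157 ± 26.7 CPM in KO, Cxcr5, the receptor that guides lymphocytes into follicles, at 81.2 ± 21.2 and 83.8 ± 26.5 CPM, and Bcl6, a factor of follicular helper T cells and germinal center B cells, at 52.9 ± 11.1 and 63.6 ± 21.6 CPM. The helper cytokines Il2, Il4, Il17a and Il21 did not pass the filter, and reached at most 0.368, 0.910, 2.05 and 0.683 CPM. Ifng of the same list did pass, at 13.5 to 26.5 CPM with a log2 fold change of -0.09. The rule for naming genes given below does not cover these cytokines. Maf, Rora and Icos are named after their values were seen. Maf, a factor of helper T cells and macrophages, had the largest log2 fold change of the list, 0.93 (edgeR, adjusted p = 0.716), with 31.7, 21.4 and 26.9 CPM in WT and 56.8, 70.5 and 27.4 CPM in KO. KO library 3 stood with the WT libraries. Groups did not overlap in Rora, lower in KO with a log2 fold change of -0.31 (edgeR, adjusted p = 0.786), and in Icos, higher with 0.18 (edgeR, adjusted p = 0.817), orders that held for 4.79% and 6.71% of all tested genes.

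Of 22 other genes of regulatory T cells, 19 were tested and 0 were called. They divided into 10 above and 9 below 0, with a median log2 fold change of 0.02. Swap70 measured 161 ± 45.0 CPM in WT and 195 ± 63.4 CPM in KO, Tnfrsf1b, a TNF receptor, 166 ± 30.1 and 170.4 ± 34.5 CPM, and Itgae, the integrin chain CD103, 121 ± 32.4 and 107 ± 25.4 CPM. For all 3 the groups differed by less than 1 SD. The 3 of 19 genes with an unadjusted p under 0.05 (6.25% of all tested genes), named after their values were seen, were Nrp1, Entpd1 and Nt5e. Nt5e encodes CD73, which forms adenosine, and measured 58.4, 65.7 and 61.7 CPM in WT and 39.7, 44.1 and 56.4 CPM in KO, without overlap, as in 4.79% of all tested genes (log2 fold change -0.42, edgeR adjusted p = 0.716). Nrp1 and Entpd1 had log2 fold changes of 0.50 and 0.50, and their groups overlapped (edgeR, adjusted p = 0.786 for both).

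The partners of the 8 gene products were also measured. Of 18 listed, 16 were tested and 0 were called, with 9 above and 7 below 0 and a median log2 fold change of 0.04. For CD4, the class II genes H2-Ab1 and H2-Aa had log2 fold changes of 0.27 and 0.25, and the co-receptor-bound kinase Lck -0.24. For the lineage factors, Runx1, Runx3 and their shared subunit Cbfb lay between -0.04 and 0.10, and the Helios relatives Ikzf1 and Ikzf3 stood at -0.07 and 0.12. Cd40, the receptor of CD40 ligand, measured 30.1, 18.4 and 16.5 CPM in WT and 37.1, 33.0 and 20.0 CPM in KO, in which the split of the libraries was seen again (log2 fold change 0.45, edgeR adjusted p = 0.818).

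The IL-2 receptor joins Il2ra to a beta and a gamma chain. Il2rb measured 328 ± 27.1 CPM in WT and 338 ± 109 CPM in KO (log2 fold change 0.03). Il2rg, the common gamma chain, measured 502, 523 and 542 CPM in WT and 429.7, 398 and 498 CPM in KO. All KO libraries were below all WT libraries, and the log2 fold change of -0.26 did not pass after adjustment (edgeR, adjusted p = 0.786). That order, found in 1 of the 16 tested partners, held for 4.79% of all tested genes. The signal transducers Stat5a and Stat5b stood at 0.05 and -0.07. For OX40 and GITR, the ligand genes Tnfsf4 and Tnfsf18 did not pass the filter, with at most 0.455 and 0.850 CPM. Of the adaptors of TNF receptors, Traf2 and Traf6 had log2 fold changes of -0.01 and 0.10, and Traf5 measured 53.0, 53.3 and 53.3 CPM in WT and 60.2, 59.3 and 57.7 CPM in KO. In Traf5 all KO libraries were above all WT libraries, as in 6.71% of all tested genes, with a log2 fold change of 0.13 (edgeR, adjusted p = 0.817).

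The tested genes with a library pattern most like that of Cd4 were sought by the root mean square difference of log2 CPM, centred on each gene's mean, over the 6 libraries. Among the 5 nearest were Fcer2a (0.0732), Blk (0.0809), Gm15987 (0.0826) and Trim7 (0.0842). Fcer2a (CD23) and Blk are B cell genes and belong to the B cell list. Fcer2a measured 184, 98.1 and 90.6 CPM in WT and 187, 174 and 76.1 CPM in KO, high and low in the same libraries as Cd4. WT library 1 exceeded KO library 2 for Fcer2a but not for Cd4 (67.2 and 72.5 CPM). Of the 8 genes, Zbtb7b was the nearest to Cd4, at 0.169 and place 92, followed by Foxp3 at 0.295 and place 459, and Tnfrsf18 was the farthest, at 0.703 and place 10502 of the tested genes.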

How the data were processed

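Gene expression was measured by RNA-seq in 3 WT and 3 KO libraries. Values deposited by the authors are expected counts for each Ensembl gene, that is, read numbers estimated by a counting program and partly fractional, and the values themselves showed this unit and no normalization. The submitters' processing notes name GRCm38 and mm10. Aligner, counter, annotation and strand setting are not given in the sources used here, so reads of overlapping genes could be divided or shared. Positions, exons and 3′-UTRs came from GENCODE M21 (GRCm38), which held 98.8% of the gene identifiers.

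Counts were rounded and fitted over all genes in R 4.3.3 with edgeR 4.0.16 (TMM, filterByExpr at 10 counts and a total of 15, quasi-likelihood test, Benjamini-Hochberg adjustment over 13024 genes, threshold 0.05). TMM factors lay between 0.989 and 1.01. Cd40lg rested on the fewest counts of the 8 genes, 12 to 66 per library. The 6 pairs of libraries within a genotype differed by 6.17 to 21.8 times the sampling noise (chi-square per degree of freedom), so none was taken for a library deposited more than once, which does not show that they come from separate mice. Confidence intervals are at 95%. The 4 ratios were compared with exact two-sided permutation tests. Members and lists were chosen with earlier results of these data known. The rule for naming genes took all 8 members, the tested partners in full, Cd8a, Cd8b1, Cd3e and Runx3 as references, any called gene and the 3 most abundant genes of each other list, and the 5 genes most like Cd4 and Foxp3, of which 1 is not reported here. Alternatives were DESeq2 1.42.0, limma 3.58.1 voom, other scalings, no filter, a replicate block, each library left out, a pseudocount in the ratios and, added after the data were seen, a B cell covariate. Tested on simulated data for 13024 genes, the edgeR procedure recovered 124 of 200 changed genes at a log2 fold change of 1 and 183 at 2, with 19 false calls each.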

Additional observations from a re-analysis of the deposited data

How the results depend on the processing

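None of the 8 genes was called by edgeR or under any alternative, whereas the number of genes called among all tested moved from 4 to 56 with DESeq2, 12 without a filter, 9 with the replicate block and 30 with the B cell covariate added after the data were seen, and it lay between 2 (without WT library 1) and 94 (without KO library 3) when a library was left out. The cause was not tested. Of 104 refitted log2 fold changes of the 8 genes, 97 kept their direction. Without WT replicate 2 and without KO replicate 1, Foxp3 stood at -0.016 and -0.098, and its values with a library left out ran from -0.098 to 0.54. Tnfrsf4, near 0, turned to 0.0034 with limma voom, 0.26 with pan T scaling (where the median of all genes moved to 0.33) and 0.0038 with the replicate block, and with a library left out ran from -0.16 to 0.22. The Foxp3 to Cd4 log2 difference ran from -0.33 to 0.14, turning to 0.0040 without WT replicate 3 and 0.14 without KO replicate 2. With a library left out, Cd4 ran from 0.10 to 0.72, Zbtb7b from 0.15 to 0.71 and Cd40lg from 0.04 to 1.43. Without KO library 3, Zbtb7b had the lowest adjusted p of any of the 8 genes under any alternative (edgeR, 0.216). The log2 fold change of Tnfrsf18 stayed below 0 in 13 of 13 alternatives (-0.46 to -0.05, adjusted p 0.288 to 1.0). Those of Cd4, Zbtb7b, Cd40lg, Ikzf2 and Il2ra likewise stayed above 0 in 13 of 13, with Il2ra between 0.39 and 0.87, and none was called.

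Replicate numbers come from the titles alone. Deviations of same-numbered WT and KO libraries correlated at -0.007, -0.225 and 0.135, so the numbers were not taken to pair samples, and the block left the 4 ratio differences at the same values by construction. Counts were low for Cd40lg (12 to 66 per library) and for the genes that did not pass the filter. The part of counting error in the spread of Cd40lg was not tested.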

Other observations

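Flicr, a long noncoding RNA gene that overlaps Foxp3 on the same strand, had 27, 7 and 19 counts in WT libraries 1 to 3 and 16, 23 and 17.2 counts in KO libraries 1 to 3, so the groups overlapped. The 5 tested genes with a library pattern most like that of Foxp3, by the root mean square difference of centred log2 CPM over 6 libraries, were Angptl4 (0.0872), Zfp2 (0.0911), Gm16094 (0.102), Casp1 (0.119) and Msr1 (0.128). Casp1, an inflammatory protease gene, measured 33.7, 18.2 and 20.3 CPM in WT and 31.4, 28.4 and 18.8 CPM in KO. Of the 8 genes, Il2ra was the nearest to Foxp3, at 0.273 and place 364.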
